A study of Mus musculus with 4 samples.

Results

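The genes described here encode the translation machinery: ribosomal proteins of the cytosol, ribosomal proteins of the mitochondrion, and initiation and elongation factors. They were chosen by symbol, as every probe set with a single annotated symbol that begins with Rpl, Rps or Rplp and a digit, Rpsa, Mrpl or Mrps and a digit, or Eif or Eef and a digit, leaving out the S6 kinases (Rps6k) and pseudogenes. This gave 191 probe sets of 145 genes, out of 8251 genes with a single-symbol probe set. Of these, 35 were cytosolic ribosomal protein genes, 61 mitochondrial ribosomal protein genes and 49 factor genes, a group that also holds kinases and binding proteins that act on the factors. The samples were total RNA from young C57BL/6J males that were handled and otherwise untreated, taken from the dentate gyrus, the granule cell field of the hippocampus. RNA was extracted 1, 2, 4 or 6 h after other mice of the experiment had received their last shock, with 1 array per hour and 4 arrays in all. All 4 arrays are therefore controls, and shocked animals are not analysed here. How many mice each array stands for is not given in the sources used here, and an hour cannot be told apart from the single array that represents it.

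Cytosolic ribosomes translate nuclear messages, and their small and large subunits are built from ribosomal RNA and ribosomal proteins that are needed in equal numbers. Initiation factors bring the small subunit to the capped end of a message, scan to the start codon and deliver the initiator tRNA, while elongation factors bring in each further tRNA and move the ribosome along. Mitochondria hold ribosomes of their own, whose proteins are encoded in the nucleus and imported, and which translate only the messages of the mitochondrial genome. In neurons of the hippocampus, translation and its control through eIF2 and the cap-binding complex are known for their role in lasting synaptic change and memory.

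Many messages of the translation machinery start with a C followed by a run of C and T, the 5′ terminal oligopyrimidine tract through which mTOR signalling controls their translation. RefSeq promoter windows (build GRCm38.p6, 250 bases before to 50 bases after the annotated start) were found for 123 of the 145 genes, 28 cytosolic, 54 mitochondrial and 41 factor genes. The lines show 30 bases on each side of the start for 8 examples that hold a tract or another searched motif, picked for their sequence, and for the 6 genes whose arrays lay over 2-fold apart (Rps13, Eif2ak1, Eif5b, Mrpl11, Mrpl17 and Mrpl21), with or without a motif. Capitals mark the tract (C and at least 4 more C or T, beginning within 5 bases of the annotated start), CCGGAAG or AAGATGGC on either strand, where they lie inside the lines.
Rps10, small subunit, chr17:27635215-27635274, minus strand: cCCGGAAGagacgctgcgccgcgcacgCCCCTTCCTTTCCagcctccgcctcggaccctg
Rps18, small subunit, chr17:33955636-33955695, minus strand: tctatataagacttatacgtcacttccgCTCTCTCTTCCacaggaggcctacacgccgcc
Rps27, small subunit, chr3:90213619-90213678, minus strand: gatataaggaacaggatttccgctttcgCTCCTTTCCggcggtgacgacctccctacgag
Rps13, small subunit, chr7:116334161-116334220, minus strand: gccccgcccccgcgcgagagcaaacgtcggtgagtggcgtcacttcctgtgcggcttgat
Rpl38, large subunit, chr11:114668550-114668609, plus strand: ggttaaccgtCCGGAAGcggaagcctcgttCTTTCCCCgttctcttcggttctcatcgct
Eef1a1, elongation, chr9:78481695-78481754, minus strand: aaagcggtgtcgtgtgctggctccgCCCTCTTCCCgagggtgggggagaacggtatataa
Eif3f, initiation, chr7:108934385-108934444, plus strand: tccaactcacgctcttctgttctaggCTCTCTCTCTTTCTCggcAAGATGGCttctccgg
Eif2s3x, initiation, chrX:94212622-94212681, minus strand: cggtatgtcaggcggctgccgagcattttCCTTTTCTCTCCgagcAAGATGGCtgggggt
Eif2ak1, eIF2 kinase, chr5:143817762-143817821, plus strand: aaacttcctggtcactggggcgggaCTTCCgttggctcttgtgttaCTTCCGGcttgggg
Eif5b, initiation, chr1:37997980-37998039, plus strand: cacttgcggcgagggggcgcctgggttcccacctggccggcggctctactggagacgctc
Mrps18a, mitochondrial small subunit, chr17:46110974-46111033, plus strand: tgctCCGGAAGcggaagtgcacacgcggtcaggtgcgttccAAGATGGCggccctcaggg
Mrpl11, mitochondrial large subunit, chr19:4962276-4962335, plus strand: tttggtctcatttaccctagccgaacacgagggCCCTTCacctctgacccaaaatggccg
Mrpl17, mitochondrial large subunit, chr7:105811058-105811117, minus strand: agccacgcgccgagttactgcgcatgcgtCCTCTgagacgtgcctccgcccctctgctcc
Mrpl21, mitochondrial large subunit, chr19:3283012-3283071, plus strand: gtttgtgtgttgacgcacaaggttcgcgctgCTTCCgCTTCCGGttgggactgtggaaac

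A tract within 5 bases of the start stood in 10 of 28 cytosolic windows (35.7%), 13 of 54 mitochondrial windows (24.1%) and 11 of 41 factor windows (26.8%), against 18.7% of 17492 windows of protein-coding genes. Exactly at the annotated start it stood in 4 cytosolic, 0 mitochondrial and 2 factor windows, against 2.17% of all windows. Seven-letter CCGGAAG, the core that ETS factors bind, was in 42.9% of cytosolic, 33.3% of mitochondrial and 29.3% of factor windows, against 11.9% of all. AAGATGGC, a sequence around the start codon of many housekeeping genes, was in 14.3%, 18.5% and 9.76% of the same classes, against 3.22% of all. The TATA box TATAAA was in 10.7%, 7.41% and 9.76%, against 13.3% of all. In all, 7 motifs were searched on both strands over the whole window. The other 4 gave, for cytosolic, mitochondrial, factor and all windows in turn, 3.57%, 7.41%, 9.76% and 3.61% for GCATGCGC; 17.9%, 16.7%, 7.32% and 5.41% for ATGGCGG, which can overlap AAGATGGC; 17.9%, 3.7%, 7.32% and 3.64% for TCTCGCG; and 25%, 42.6%, 26.8% and 39% for CCAAT. These shares describe the letters of the windows and were not tested, and annotated starts need not be the starts used in the dentate gyrus.

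Values are linear array intensities, given below in the order 1, 2, 4 and 6 h. Array medians lay between 184.75 and 212.75, and means trimmed by 2% at each end between 499.7 and 499.9. Granule cell markers were present, with Calb1 between 2453 and 3026 and Prox1 between 153.5 and 249.1. Of the choroid plexus list, 4 of 4 genes with a probe set were above the floor at every hour, and their summed intensity was 2123, 4822, 5692 and 2988. Its defining marker Ttr, the thyroxine carrier transthyretin, read 81.3, 233.6, 2408 and 191.2, high at 4 h alone. The others differed from it: Igf2 read 1849, 4402, 2955 and 2521, highest at 2 h, Folr1 read 58.2, 51.2, 125.8 and 109.1, and Kl read 134.1, 135.3, 203.7 and 167.0. Other marker lists also differed at 4 h from the mean of the other hours, by a median of 0.29 log2 for CA pyramidal markers (0 of 3 below 0), −0.34 for microglia (4 of 5 below), −0.18 for astrocytes (3 of 4 below), −0.12 for interneurons (3 of 4 below), −0.10 for granule cells (4 of 4 below) and 0.14 for oligodendrocytes (1 of 4 below). For endothelial markers it was 0.21 log2 (1 of 3 below), and for Hba-a1, the only tested blood marker, −0.39. The part of these cell types in the differences at 4 h was not tested. In bulk tissue, fewer cells of a type and less RNA per cell cannot be told apart.

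No gene of the translation machinery had a called trend over the hours. A line on the hour was fitted to log2 intensity with limma across the 4951 genes whose mean log2 intensity reached 7.41 (an intensity of 170.4), of which 116 belong to the translation machinery: 25 cytosolic, 53 mitochondrial and 38 factor genes. At an adjusted p under 0.05, 0% of the 4951 genes and 0 of these 116 were called, with 0.99993 as the lowest adjusted p. Before adjustment, 100 genes had a p under 0.05, 1 of them among the 116 (Mrpl11). Leaving out an array changed the calls over all genes: 13 were called without the 1 h array and 9 without the 6 h array, among those 9 the eIF2 kinase gene Eif2ak1 (limma adjusted p = 0.0375), with 3 arrays behind that line. The median slope was −0.012 log2 per h for cytosolic, −0.0079 for mitochondrial and −0.021 for factor genes, against −8.3e-05 for all genes. Slopes were positive in 6 of 25, 25 of 53 and 11 of 38 genes, against 49.9% of all genes, and in 37.6% of all genes with a mean intensity of 4000 and over, where 16 of the 25 cytosolic genes lay.

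Over 2-fold differences between the highest and lowest hour were found in 15% of all tested genes and in 6 of the 116: 1 of 25 cytosolic, 3 of 53 mitochondrial and 2 of 38 factor genes. The share among all genes depended on brightness, at 20.1% under a mean intensity of 1000, 3.61% between 1000 and 4000, and 3.92% at 4000 and over. All 6 of the genes over 2-fold had means under 1000, where they were 1 of 5 cytosolic, 3 of 36 mitochondrial and 2 of 22 factor genes. The median ratio of highest to lowest hour was 1.29 for cytosolic, 1.39 for mitochondrial and 1.38 for factor genes, against 1.47 for all genes. By brightness, the ratio for all genes was 1.55 under 1000, 1.35 between 1000 and 4000 and 1.28 at 4000 and over. In the same bands it was 1.53, 1.21 and 1.24 for cytosolic genes and 1.5, 1.24 and 1.40 for factor genes. For mitochondrial genes it was 1.45 under 1000 and 1.26 between 1000 and 4000. With 1 array per hour these ratios have no replicate error and were not tested.

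**Figure D1:**
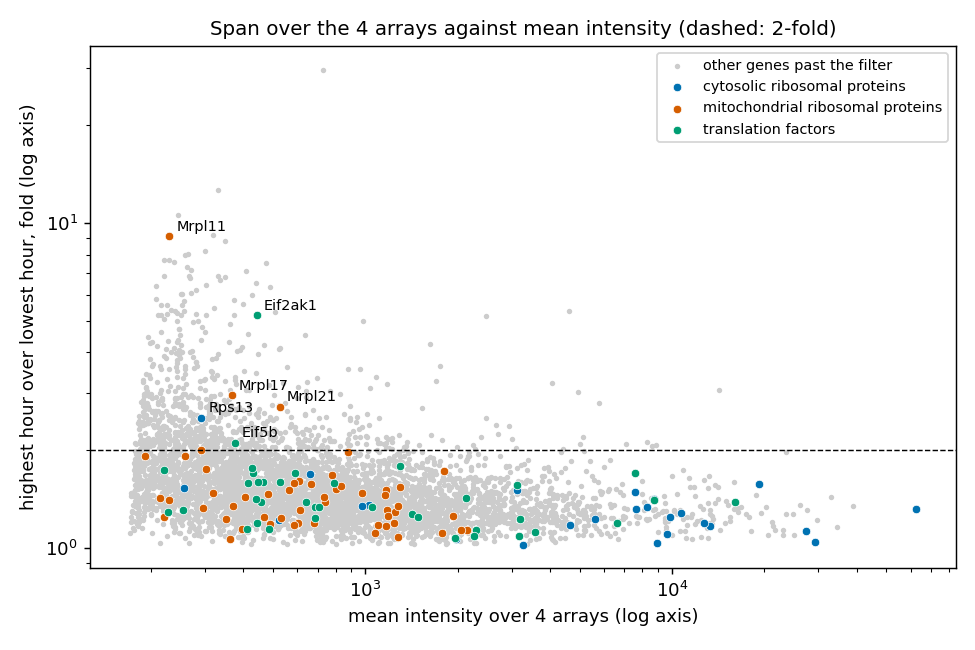
Ratio of the highest to the lowest of the 4 arrays (vertical, log axis) against mean intensity (horizontal, log axis) for each gene past the filter, with translation genes coloured by class over the other genes in grey. The 6 labelled genes lie above the dashed 2-fold line, all at mean intensities under 1000, and Mrpl11 includes a value at the floor.

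The 4 narrowest cytosolic ribosomal protein genes were Rpsa, Rps10, Rps28 and Rps19. Rpsa, which encodes the small subunit protein also known as the laminin receptor, read 3333, 3245, 3281 and 3245, a mean of 3276 ± 41.3 (SD, n = 4). Small subunit gene Rps10 read 8741, 9076, 9085 and 8968, and Rps28 read 28601, 29623, 29824 and 29083. The other Rps28 probe sets past the filter read 13039, 15117, 12405 and 13155, and 388.0, 442.3, 714.0 and 523.6, a root mean square disagreement of up to 0.40 log2, so the narrow range belongs to 1 probe set. That probe set has an f suffix in its name, which marks shared sequence. Rps19, the small subunit gene mutated in Diamond-Blackfan anaemia in humans, read 2061, 1943, 1934 and 1944. Highest and lowest arrays of these 4 genes differed by no more than 1.07-fold. Nearest to the median profile of the class were Rpl8, at 9570, 10047, 9075 and 9916, and Rpl37a, at 4681, 4900, 4166 and 4813, with root mean square distances of 0.03 and 0.04 log2 over the 4 arrays.

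At the other end, the small subunit gene Rps13 read 186.4, 449.0, 178.3 and 353.7, a 2.52-fold range with the 1 h and 4 h arrays low and the 2 h and 6 h arrays high. This range belongs to the only Rps13 probe set, which has an r suffix in its name. It was dim for the class, where 16 of 25 genes had a mean of 4000 and over. How well that probe set reads the message was not tested. Rps4l, a paralogue of the X-linked Rps4x, read 606.5, 854.8, 669.2 and 504.8. The large subunit gene Rpl19 read 17472, 20418, 23916 and 15165, highest at 4 h where most of the class was low. Rps29 read 311.6, 254.4, 203.5 and 257.0, and Rpl10a read 3092, 3939, 2601 and 2840. Both were lowest at 4 h. Rplp0, the scaffold of the ribosomal P stalk that recruits elongation factors, read 9500, 12217, 10986 and 9988 and was the only stalk gene with a single-symbol probe set. Rps24 has a limit: its brightest probe set, at 29454, 27347, 26058 and 26638, is built on the same source sequence as a probe set annotated to Rpl7, while its other probe set read 132.2, 128.9, 210.6 and 144.9. Rpl7 has the same limit: the probe set with the shared source stands for it, at 7585, 8603, 6512 and 7776. Its other probe set read 33.8, 75.1, 120 and 11.1. Both bright probe sets were lowest at 4 h. Without the brighter Rps24 probe set the median slope of the class was −0.0093 log2 per h. The 4 h difference of the class was not computed without them.

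Most tested cytosolic genes were lower on the 4 h array than the mean of the other hours. The lowest array was 4 h in 14 of 25 genes (56%), against 29.2% of all tested genes and 36.3% of those at a mean of 4000 and over. The median difference of 4 h from the mean of the other hours was −0.13 log2, against 0.022 for all genes. This difference was below 0 in 17 of 25 genes, against 47.9% of all genes. At 4000 and over, the median was −0.13 for 16 cytosolic genes, 9 of them lowest at 4 h and 11 below 0. For 286 genes of that brightness outside the translation machinery it was −0.056, with 59.4% below 0. Examples were Rps4x at 9268, 9080, 6896 and 9766, Rps7 at 10433, 10408, 8346 and 10098, and Rps3a1 at 13210, 13311, 11132 and 13292, chosen after their values were seen. In these 3 genes the 4 h array lay below each of the other arrays. Rpl19 and Rpl41, at 69950, 52878, 66409 and 60915, ran the other way. The Rpl41 probe set also has an f suffix in its name. The median at 2 h was 0.090 above the other hours, with 11 of 25 genes highest there (44%), against a median of 0.0099 for all genes, 23.2% of all genes highest at 2 h and 28.8% of those at 4000 and over. Those other hours include the 4 h array. Without it the 2 h median was 0.039 above the mean of 1 h and 6 h, against 0.0057 for all genes.

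The size of the 4 h difference depended on scaling. With each array scaled to a common median, all genes moved to −0.17 at 4 h and the cytosolic class to −0.33, a shift that this scaling gives every gene alike. After quantile normalization the class was at −0.071 against 0.0077 for all genes. The rule leaves out probe sets with several symbols, and ribosomal protein genes share sequence with pseudogenes and each other. Of 39 such probe sets that name a cytosolic ribosomal protein gene, 34 were past the filter. Among these 34, 21 had a mean of 4000 and over. With values scaled as deposited, their median 4 h difference was −0.11, beside −0.13 for the class. The lowest array was 4 h in 14 of the 34, against 29.2% of all tested genes and 36.3% of those at 4000 and over. Since every difference at 4 h rests on 1 array, which also carries the high Ttr, the hour and the array cannot be told apart.

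**Figure D2:**
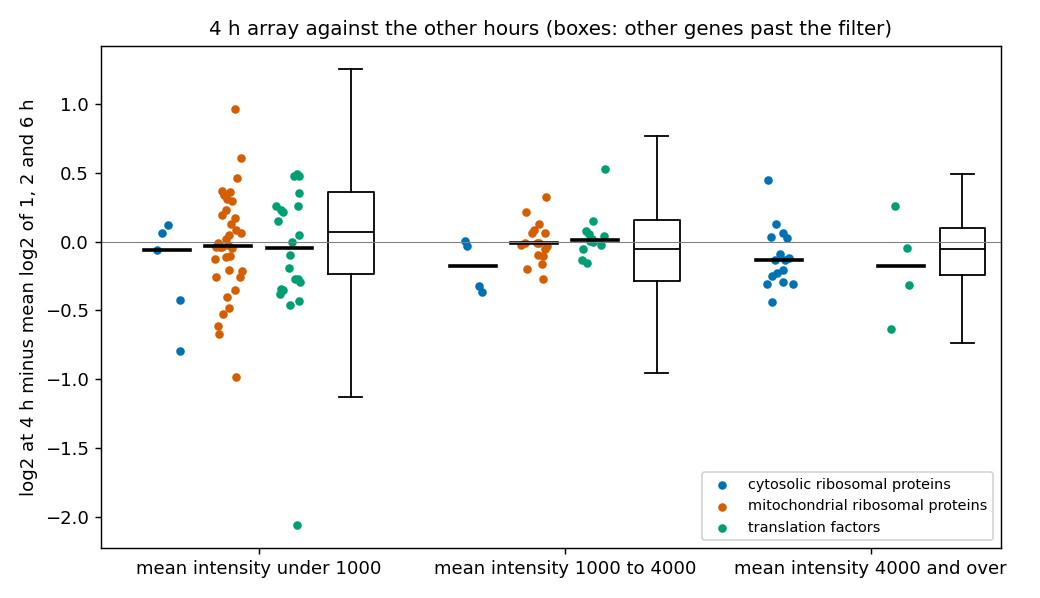
Log2 intensity at 4 h minus the mean log2 of 1, 2 and 6 h (vertical) for translation genes in 3 bands of mean intensity (points, with a bar at each class median) beside boxes of the other genes past the filter (median, quartiles and whiskers to 1.5 times the quartile range, outliers not drawn). At 4000 and over, the cytosolic median is −0.13 and the median of the other genes −0.056.

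Mitochondrial ribosomal protein genes had their lowest array at 1 h in 14, 2 h in 13, 4 h in 11 and 6 h in 15 of 53 genes, against 24.5%, 23.2%, 29.2% and 23.1% of all genes. The median difference from the other hours lay between −0.026 at 4 h and 0.052 at 1 h. At 1 h the dimmer and brighter genes of the class differed in sign. The 36 genes under a mean of 1000 had a median of 0.12, and the 17 genes between 1000 and 4000 had a median of −0.11, with 11 below 0. Of those 17 genes, 8 were lowest at 1 h (47.1%), against 20.9% of all genes in that band. That count depends on the probe set used. Among the 8, the other probe sets past the filter were lowest at 4 h for Mrpl18, Mrpl45 and Mrps18a, and at 6 h for Mrpl48. Large subunit genes were past the filter in 35 of 40 cases and small subunit genes in 18 of 21. Closest to the class median were Mrps11, at 365.8, 345.0, 369.5 and 364.2, and Mrpl27, at 2221, 2023, 2014 and 1956. Other narrow genes were Mrps17 (1288, 1231, 1272 and 1330), Mrpl38 (1009, 1070, 1122 and 1094) and Mrpl51 (1712, 1702, 1896 and 1780). The 4 genes Mrps11, Mrps17, Mrpl38 and Mrpl51 differed by at most 1.11-fold over the 4 arrays.

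Mrpl11, a large subunit protein next to the factor-binding site of the mitochondrial ribosome, had the widest range in the class. It read 348.6, 337.8, 193.9 and 37.5, lower at each step, and the 6 h value lay below the floor of 38.3. The ratio of 1 h to 6 h was at least 9.1-fold, with a fitted slope of −0.63 ± 0.14 log2 per h (SE, n = 4; limma adjusted p = 0.99993). Without the 6 h array the slope was −0.30 and the range 0.85 log2, so the width rests on that array. Mrpl17 read 390.0, 324.0, 564.0 and 191.1, high at 4 h and low at 6 h. Mrpl21 read 611.0, 401.6, 293.7 and 799.5, low at 4 h and high at 6 h, the opposite order. Mrpl39 read 333.3, 173.0, 310.4 and 345.9, with the 2 h array alone low. The small subunit gene Mrps34 read 1294, 656.6, 743.2 and 828.9, with the 1 h array alone high.

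**Figure D3:**
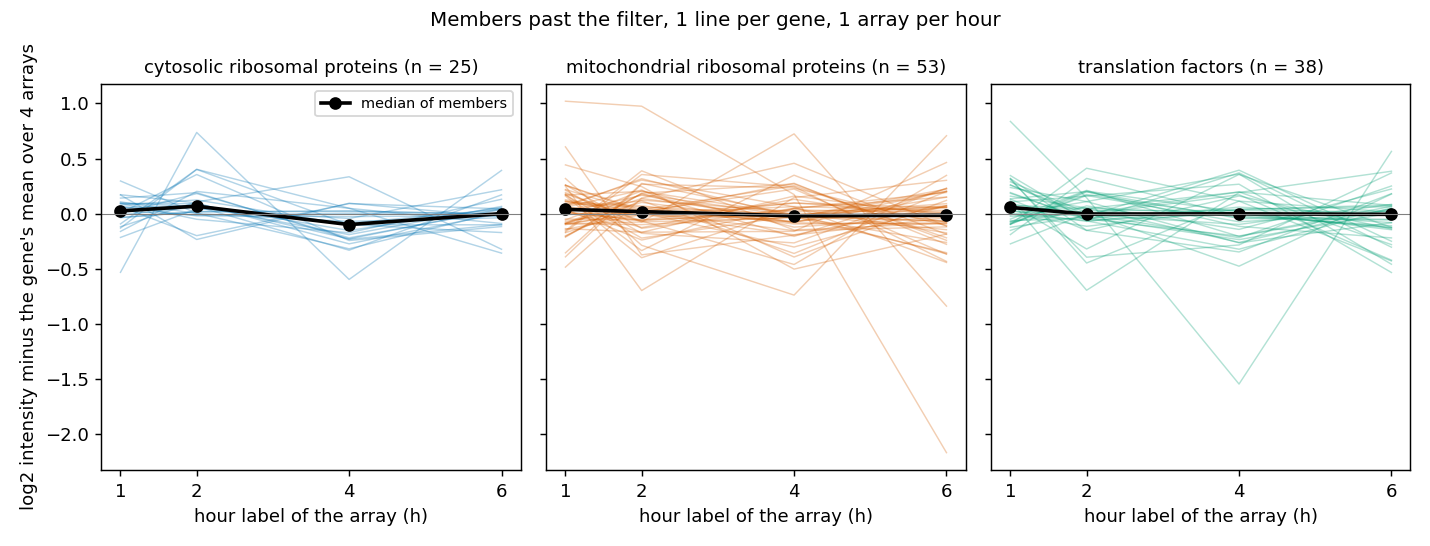
Log2 intensity of each gene past the filter minus its own mean over the 4 arrays (vertical) by hour (horizontal), 1 thin line per gene and the class median in black. The cytosolic median is lowest at 4 h, while the mitochondrial and factor medians stay within 0.06 log2 of 0; the deepest lines are Mrpl11 at 6 h and Eif2ak1 at 4 h.

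Among elongation factors, the genes for the tRNA carrier eEF1A ran in opposite directions at 4 h. Eef1a1, the form found in most tissues, read 16329, 16408, 18223 and 13091, highest at 4 h. Eef1a2, the form of mature neurons and muscle, read 10372, 8469, 7355 and 8704, lowest at 4 h. Eef2, the translocase, read 2825, 3033, 4045 and 2587, with the 4 h array alone high. Its kinase Eef2k, which stops elongation when activated by calcium and calmodulin, read 33.4, 44.3, 253.2 and 42.3 and did not pass the filter. The exchange factor subunits Eef1b2 (433.4, 425.7, 410.9 and 377.3) and Eef1d (747.7, 614.2, 762.8 and 620.0) varied less, and Eef1g was below the floor on all 4 arrays. None of the 5 tested genes of this set had a positive slope.

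For the cap-binding complex, 7 of 10 genes were past the filter, with ranges between 1.09-fold and 1.79-fold. Of the 7, 4 were lowest at 4 h, against 29.2% of all tested genes. Among these 4, Eif4a1 was read by a probe set with an r suffix in its name. Eif4ebp2, also among them, had a second probe set past the filter that was highest at 4 h. The second Eif4b probe set past the filter was lowest at 4 h, unlike the first. Eif4a2, the RNA helicase form abundant in brain, read 9087, 7486, 5347 and 8415, low at 4 h, while its paralogue Eif4a1 read 627.4, 633.4, 548.4 and 758.8. Eif4b, which stimulates the helicase, read 1188, 1690, 1374 and 943.4. The scaffold gene Eif4g3 read 2155, 2191, 2317 and 2355 and was the narrowest of the set, and Eif4g2, a scaffold relative that does not bind the cap protein, read 514.8, 471.3, 363.6 and 412.7. Cap-binding genes were Eif4e2, at 203.4, 237.3, 204.7 and 263.9, and Eif4e itself, at 123.1, 16.8, 116.9 and 140.2, which was below the filter and below the floor at 2 h. The inhibitor gene Eif4ebp2, the main 4E-BP of brain, read 2323, 2270, 2136 and 2423, and Eif4ebp1 read 41.7, 163.8, 169.8 and 46.8, below the filter. Eif4h was above the floor only at 4 h, at 41.1.

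In the set of eIF2, its exchange factor eIF2B and its kinases, 7 of 11 genes were past the filter. Eif2ak1, the kinase activated by lack of haem, read 670.3, 414.9, 128.7 and 555.2, a 5.21-fold range with the 4 h array alone low, 2.06 log2 below the other hours. Without that array the range was 0.69 log2. The other kinase genes were below the filter: Eif2ak2 (PKR) read 59.6, 79.2, 66.6 and 142.5, Eif2ak3 (PERK) 131.5, 108.7, 185.6 and 125.1, and Eif2ak4 (GCN2) 155.1, 61.5, 207.9 and 78.9. Of the eIF2 subunits, the X-linked Eif2s3x read 2984, 3659, 3098 and 3067 and its Y-linked partner Eif2s3y 288.6, 245.7, 220.7 and 266.0. The Eif2s3y probe set has an f suffix in its name, which marks shared sequence. Whether it reads Eif2s3y alone was not tested. Eif2s2 was below the filter and read 210.3, 183.9, 14.2 and 248.5, below the floor at 4 h alone. Its other probe set, also below the filter, was not low at 4 h and read 62.3, 49.3, 134.7 and 151.1. The eIF2B genes read 713.2, 437.8, 472.9 and 743.4 for Eif2b1, 376.6, 455.9, 521.7 and 479.7 for Eif2b2, 656.5, 786.4, 588.9 and 700.3 for Eif2b4, and 519.6, 499.2, 673.5 and 422.1 for Eif2b5. No high or low hour was common to all 4 of these subunit genes, although Eif2b2 and Eif2b5 were both highest at 4 h.

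In the scanning and start set, 14 of 15 genes were past the filter and the 3 narrowest were subunits of eIF3, which holds the initiation complex on the small ribosomal subunit. Eif3c read 3224, 3015, 3298 and 3130, Eif3k 3785, 3533, 3573 and 3367, and Eif3b 1869, 2007, 2007 and 1990. Other eIF3 genes spread more: Eif3f read 232.8, 241.6, 260.2 and 149.4, and Eif3e 525.3, 308.9, 455.7 and 425.6. Between these lay Eif3a, Eif3d, Eif3l and Eif3m, at 1.27-fold to 1.42-fold. Eif5b, which joins the ribosomal subunits, read 392.7, 223.6, 413.2 and 472.4, a 2.11-fold range with the 2 h array alone low. Eif6, which keeps the subunits apart, read 414.8, 450.9, 536.0 and 304.1. Eif5, which promotes GTP hydrolysis on eIF2, read 1692, 1421, 1480 and 1354. Eif1ax read 413.5, 495.1, 419.7 and 442.7, and Eif1a 482.9, 446.6, 496.0 and 510.6. Eif5a, a factor with the modified amino acid hypusine, read 40.3, 105.8, 167.1 and 24.7 and was below the filter.

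Of the 145 genes, 29 did not pass the filter, 10 cytosolic, 8 mitochondrial and 11 factor genes, and 18 had at least 1 value at the floor. Besides those already given, floor values were found for the cytosolic genes Rpl32, Rpl39l, Rps14, Rps15, Rps20 and Rps27l, the mitochondrial genes Mrpl14, Mrpl49, Mrps5 and Mrps16, and Eif4enif1, a transporter of the cap-binding protein. Such values describe the probe set used for a gene, and whether it detects the message was not tested. They do not show that a gene is silent in the dentate gyrus. The probe sets of Rpl32 and Rps27l have an r suffix in their names. Rps15 read 103.7, 103.6, 107.3 and 4.4, so that only the 6 h array was below the floor. Mrps16 read 110.6, 36.8, 197.5 and 247.6, below the floor at 2 h alone.

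Several probe sets per gene gave a check on such ranges. Among 12 genes with at least 2 probe sets past the filter, the lowest hour was shared by all probe sets in 4 (Rpl10a, Rpl22, Eif1a and Eif5b). Eif5b's second probe set read 412.0, 245.5, 333.6 and 249, low at 2 h as in the first but also low at 6 h. Rpl10a's second probe set read 1500, 1865, 1189 and 1630, again highest at 2 h and lowest at 4 h. Eif4ebp2 disagreed most, by a root mean square of 0.92 log2: its second probe set read 132.9, 399.6, 723.4 and 368.4, where the first was nearly level. The disagreement was 0.12 log2 for Mrpl18 and 0.43 for Eif4b.

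**Figure D4:**
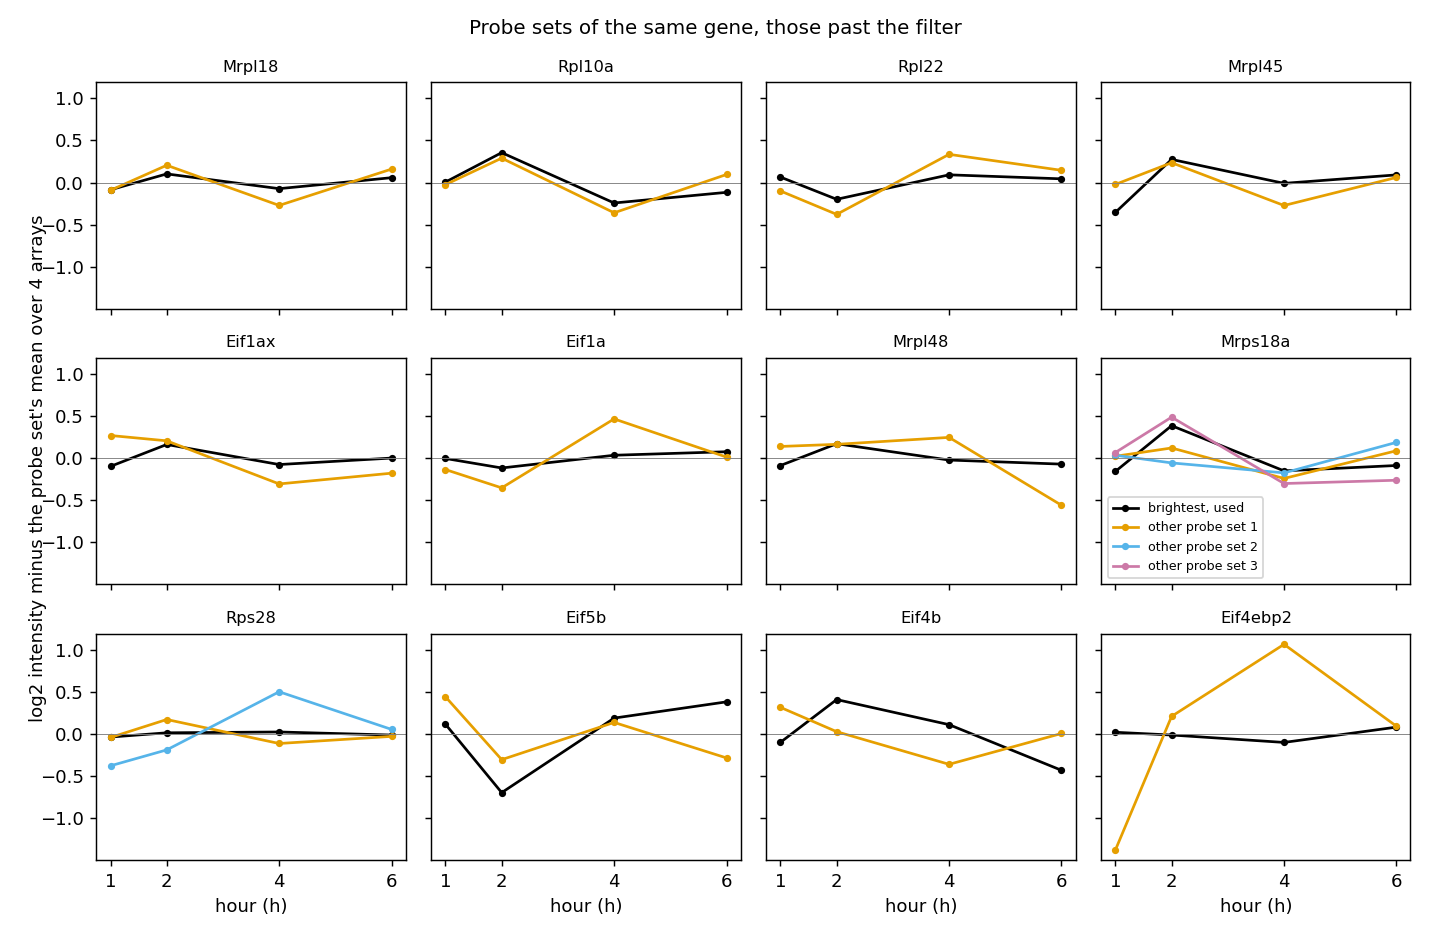
Log2 intensity of each probe set minus its own mean over the 4 arrays (vertical) by hour (horizontal) for the 12 genes with at least 2 probe sets past the filter, ordered by disagreement. Black is the brightest probe set, which stands for the gene elsewhere; in the last panel the Eif4ebp2 probe sets part by a root mean square of 0.92 log2.

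Other genes of translation were followed in 6 lists, with 0 called trends in each. Over 2-fold ranges were found in 2 of 24 tested aminoacyl-tRNA synthetase genes, 3 of 34 ribosome biogenesis genes, 1 of 13 mTOR and S6 kinase genes, 1 of 14 termination and poly(A)-binding genes, 0 of 6 mitochondrial translation factor genes and 0 of 12 genes of FMRP and local translation, against 15% of all tested genes and 20.1% of those under a mean of 1000. Widest in the first list were Tars2, a mitochondrial threonine synthetase (324.5, 265.8, 116.5 and 302.1), and Kars, the lysine synthetase (194.2, 349.8, 272.3 and 127.7). The ribosome assembly genes Ddx18 and Bysl read 264.1, 302.3, 107.2 and 167.7, and 338.2, 841.0, 363.2 and 453.4. Mknk1, a kinase of eIF4E, read 395.1, 255.3, 590.2 and 331.8, and Pdcd4, an inhibitor of the eIF4A helicase, 1975, 1715, 1063 and 1595, low at 4 h as Eif4a2 was. Pabpn1, the nuclear poly(A)-binding protein, read 1334, 2061, 1604 and 988.7, and Pabpc2 172.7, 157.1, 306.1 and 218.9. Tufm and Tsfm, elongation factors of the mitochondrion, read 786.3, 612.3, 968.5 and 1110, and 458.0, 421.5, 541.3 and 300.2. Pura and Cyfip2, of RNA transport and the FMRP complex, read 6562, 3559, 4861 and 6596, and 4651, 2990, 2750 and 4856. A low 4 h array was not particular to cytosolic ribosomal protein genes, whose median 4 h difference was −0.13 log2. It was −0.15 for FMRP and local translation, −0.093 for the synthetases and −0.092 for termination and poly(A) binding. The medians were 0.0044 for mTOR and S6 kinase, 0.092 for ribosome biogenesis and 0.11 for mitochondrial translation factors.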

How the data were processed

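The deposited values are linear array intensities for 12488 probe sets on 4 arrays. How the authors scanned and scaled them is not given in the sources used here. Probe sets were named from the platform annotation, and 145 of 145 genes matched a RefSeq gene table. Probe sets with several symbols (396) were left out. Values under the 20th percentile were raised to it (38.3) before taking log2. The brightest probe set stood for a gene, and genes at or above the 40th percentile of gene means were tested. Of the 191 probe sets, 13 have an f or s suffix, which marks shared sequence, and 22 an r or i suffix. How well these read a single gene was not tested. The slope on the hour came from limma 3.58.1 under R 4.3.3 (eBayes with an intensity trend, 2 residual and 10.4 prior degrees of freedom), with Benjamini-Hochberg adjustment over 4951 genes, and the fit was tested on simulated data. Tables and figures were made with Python 3.11.15. The number of arrays limits the precision, and p-values measure scatter between samples about a line.

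The members, lists and tests were chosen with earlier results of these data known. Named genes are, per class, the 5 widest and 4 narrowest, those nearest to or furthest from the class median, members of 5 functional sets, genes with several probe sets past the filter, genes at the floor, and genes that move 1 way over more than 1.5-fold. Examples named as chosen after their values were seen are exceptions. Alternatives were another floor, an added constant of 32, other filters, array median scaling, quantile normalization, other uses of probe sets, no intensity trend and leaving out each array.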

Additional observations from a re-analysis of the deposited data

Results flagged for a closer look

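In 15 of the 145 genes, 1 array lay far from the other 3, by a gap that took more of the whole log2 range than chance gives in about 1 of 20 groups. The 4 arrays also differ in their hour, so a gap is not an error of an array. Of the tested genes 9 of 116 (7.76%) showed such a gap, against 5.7% of all tested genes. The gap as a share of the range was 0.836 for Rpl22, low at 2 h, 0.873 for Rpl6, high at 2 h, 0.923 for Rps19, high at 1 h, 0.957 for Rps3a1 and 0.854 for Rps7, both low at 4 h. It was 0.886 for Eif3b, low at 1 h, 0.844 for Mrpl39, low at 2 h, 0.949 for Mrpl41, high at 6 h, and 0.871 for Mrps18a, high at 2 h. Below the filter it was 0.966 for Rps15, 0.923 for Eef2k, 0.839 for Eif2s2 and 0.860 for Eif4e, each with 1 array at the floor. It was 1 for Rps27l and 1 for Eif4h, each with 3 arrays at the floor. The median profile of the factor genes had a gap of 0.924, with 1 h above the other hours by a median of 0.076 log2. By brightness, that median at 1 h was 0.15 for 22 factor genes under a mean of 1000 and −0.092 for 12 between 1000 and 4000. For 4 factor genes at 4000 and over it was 0.20.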

How the results depend on the processing

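The count of 0 called trends over all genes held under each alternative that kept the 4 arrays, and ranged from 0 to 13 when 1 array was left out. For factor genes it ranged from 0 to 1. Cytosolic genes over 2-fold apart numbered 7 without a filter, 6 with a filter at the 20th percentile, 2 with the mean of probe sets and 0 to 1 without 1 array. Mitochondrial genes numbered 9 and 9 under those filters, 6 with array median scaling, 6 with every probe set and 1 to 3 without 1 array. Factor genes numbered 1 with the added constant, 10 without a filter, 8 with the filter at the 20th percentile, 5 with every probe set and 1 to 2 without 1 array. The cytosolic median slope was −0.0022 log2 per h after quantile normalization and ranged from −0.055 to −0.0066 without 1 array. The mitochondrial one was −0.015 without a filter and at the 20th percentile, −0.016 with array median scaling, −0.014 with every probe set and −0.011 to 0.0031 without 1 array, so its sign is not settled. The factor one was −0.028 with array median scaling and −0.032 to −0.0018 without 1 array. The cause of these shifts was not tested. The cytosolic difference at 4 h was −0.33 with array median scaling, which shifts all genes alike, −0.071 after quantile normalization, −0.058 without a filter and with the mean of probe sets, and −0.19 to −0.10 without 1 array. In comparisons chosen after seeing the data it was −0.078 relative to genes of like brightness and −0.12 with probe sets of several symbols added. Without the 4 h array, 1 cytosolic, 1 mitochondrial and 1 factor gene under a mean of 1000 were over 2-fold apart, also a later choice. Mrpl11 is not in that count because it fell below the filter there, although it still read 348.6, 337.8 and 37.5. No paired analysis was possible because all 4 samples belong to 1 group. With 1 array per hour, no hour has an error of its own.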
